A study of Homo sapiens with 4 samples.

Results

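Aminoacyl-tRNA synthetase genes were examined for RNA recovered with PRMT5, an arginine methyltransferase, in Jurkat cells. The list held 35 genes, of which 19 encode cytosolic enzymes and 16 encode mitochondrial enzymes. A peak is a stretch of the genome where reads of the immunoprecipitated RNA were called over input. Of the 35 genes, 24 had at least 1 peak, and together they carried 64 of the 18993 peaks and 24 of the 8478 gene identifiers in the list. A gene was counted when the identifier of a peak mapped to it, by the symbol in the study's supplemental list of peaks for 3 genes and by the GRCh38 gene on the same strand for the other 21.

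Aminoacyl-tRNA synthetases join each amino acid to its matching tRNA, which then carries it to the ribosome. The cytosol and the mitochondria translate their own mRNAs, and most amino acids therefore have a cytosolic and a mitochondrial enzyme, both encoded by nuclear genes. GARS1 and KARS1 encode the cytosolic and the mitochondrial form from the same gene. Several cytosolic enzymes stand together in a multi-synthetase complex, and transcription of many cytosolic synthetase genes is known to rise with ATF4, the transcription factor of the amino acid response.

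Jurkat is an established human leukemic T cell line. The cells were stimulated for 48 hours with PHA, a plant lectin that activates T cells, and were then crosslinked with UV light at 400 mJ (264 nm in the sample labels, a shorter wavelength in the study's RIP methods). The groups sequenced were PRMT5 RIP (RNA recovered by immunoprecipitation through FLAG) and input (RNA of the lysate), with 2 libraries in each. Both groups had the same cell line, PHA and UV treatment, so that the immunoprecipitation was the only labelled difference. These libraries included no control immunoprecipitation. The authors deposited 1 pooled value for each group, in RPM (reads divided by library size), at each peak, so the values below have no replicate spread, and no difference between genes or classes could be tested. Of the T cell markers checked, 9 of 9 had a peak, with RIP over input of 0.05 to 0.62 on the log2 scale. MS4A1, CD14 and LYZ had no named peak, whereas the B cell marker CD79A had 69.9 RPM in RIP against 37.3 in input and the myeloid marker CSF1R 33.0 against 29.5.

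Sequences at the 5′ ends of the genes were examined first, because many peaks began there. The window was 300 bases around a RefSeq start, from 250 bases before it. The motif was TGATGCAA, read on both strands (TTGCATCA on the other), the core of the element through which ATF4 and its partners bind genes of the amino acid response. It lay in the windows of 6 of 16 cytosolic genes (37.5%) and 0 of 14 mitochondrial genes with a window, against 1.08% of all 27305 genes with a window. The 6 windows are shown because the match was found in cytosolic genes and in no mitochondrial gene with a window, with the motif in capitals and flanks in lower case, 5′ to 3′ on the strand of the gene, from RefSeq GRCh38.p14.
AARS1: ttctcgcagTTGCATCAgccaagtta
CARS1: gggcggcggTTGCATCAgattctagg
IARS1: ttcagcgcgTTGCATCAcctccgtgc
MARS1: cggttccggTTGCATCAgcgagggat
NARS1: tacgctctcTGATGCAAcgccggaat
TARS1: gcctttcgaTTGCATCAgctggtcca

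These stretches lay at chr16:70289677-70289702 (AARS1, minus strand), chr11:3057409-3057434 (CARS1, minus), chr9:92293694-92293719 (IARS1, minus), chr12:57488055-57488080 (MARS1, plus), chr18:57621806-57621831 (NARS1, minus) and chr5:33440958-33440983 (TARS1, plus). Counted from the RefSeq start, the first base of the motif was at -187 in AARS1, -13 in IARS1, -4 in MARS1, -2 in CARS1, 3 in TARS1 and 15 in NARS1. With the sixth base free (TGATGNAA, which includes the motif above), the match was in 7 of 16 cytosolic genes, GARS1 being added, in 1 of 14 mitochondrial genes (YARS2) and in 4.46% of all genes with a window. The first MARS1 peak began at position 57488068, inside the printed stretch, and the first TARS1 peak began at 33440969, also inside it. A match describes the letters of the window and does not show that a factor bound there. Of the 6 genes, AARS1 had no peak, and the other 5 had log2 ratios of RIP over input from 0.52 to 1.17 with a median of 1.04, against a median of 0.86 (0.26 to 1.73) for the 8 other cytosolic genes with a window and a peak.

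Peaks were found in 15 of the 19 cytosolic genes (46 peaks) and in 9 of the 16 mitochondrial genes (18 peaks). The cytosolic genes without a named peak in the list were AARS1, FARSB, LARS1 and RARS1, which encode the alanine enzyme, the beta subunit of the phenylalanine enzyme and the leucine and arginine enzymes. The mitochondrial genes without a named peak were AARS2, EARS2, LARS2, NARS2, PARS2, RARS2 and VARS2. For alanine, leucine and arginine neither the cytosolic nor the mitochondrial gene had a named peak. The strand of AARS2, LARS1 and VARS2 was not given, so whether a peak without a name touched them was not checked. Of the 30 synthetase genes whose strand was given in the RefSeq promoter table, 22 were touched by a peak on their own strand, and over all protein-coding genes of known strand the share was 37.6% (5954 of 15843). Input levels outside peaks were not used here, so whether the genes without a peak had less RNA was not tested.

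For each gene the RPM was summed over its peaks in RIP and in input, and the log2 ratio was taken after adding 0.01 RPM to each sum. By this measure 14 of the 24 genes had at least 2-fold more RPM in RIP than in input, against a background of 62.7% of all genes in the list. The 9 mitochondrial genes included 8 at 2-fold or more (88.9%), and the 15 cytosolic genes included 6 (40.0%). On the scale of the authors' peak caller, whose log2FC runs higher, a median log2FC of at least 1 was reached by 9 of 9 mitochondrial and 13 of 15 cytosolic genes, against 94.9% of all genes, so that the counts of the classes lay much closer together. The median log2 ratio was 1.32 for the mitochondrial genes (0.90 to 2.53) and 0.93 for the cytosolic genes (0.26 to 1.73), with 1.20 over the whole list. The ranges of the classes overlapped between 0.90 and 1.73.

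**Figure D1:**
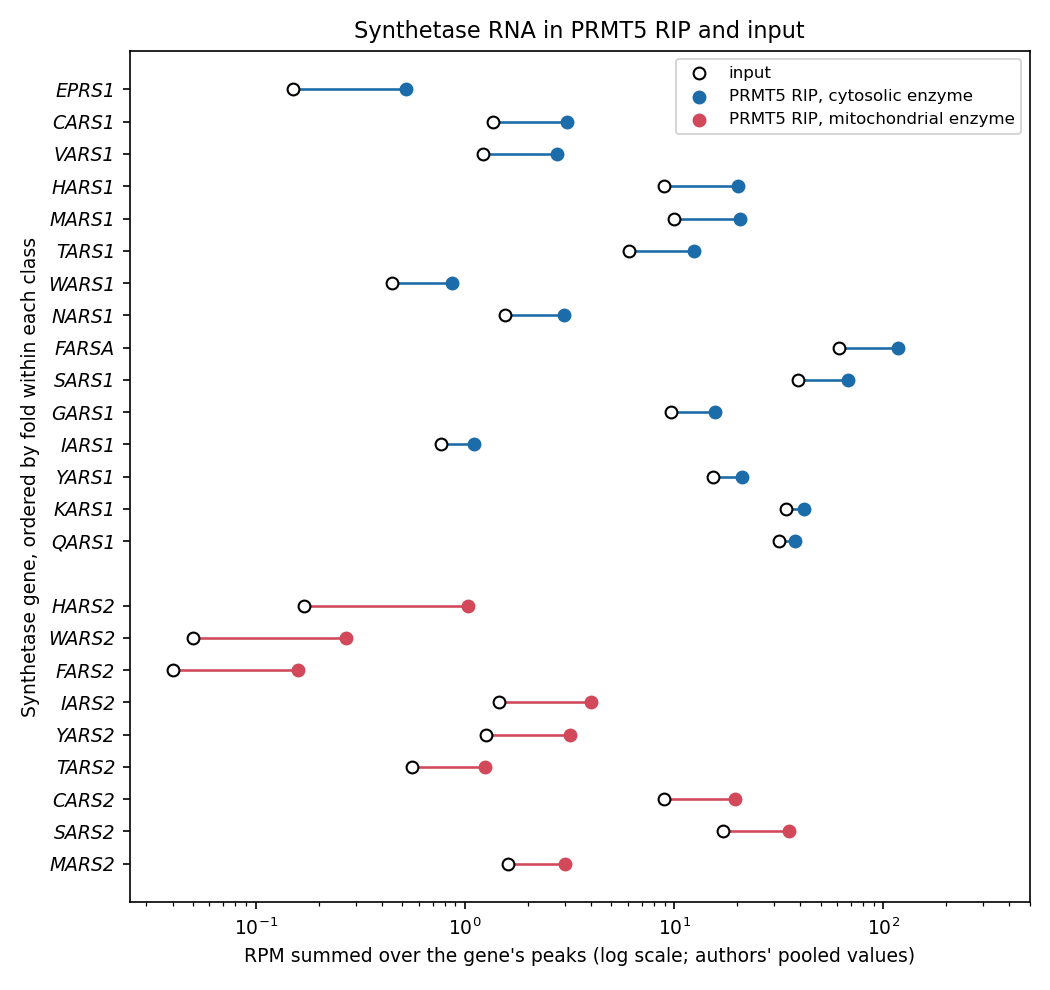
Summed RPM of each synthetase gene in input (open circles) and PRMT5 RIP (filled circles, blue for cytosolic and red for mitochondrial enzymes) on a log axis, with genes ordered by fold within each class. Every gene was higher in RIP than in input, from 1.20-fold for QARS1 to 6.06-fold for HARS2. The list holds stretches called over input, and only 3.84% of all its peaks had lower RPM in RIP than in input.

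The classes also differed in their input values, and across the list a smaller share of genes reached 2-fold at higher input. Input is the denominator of the ratio, and the list holds stretches called over input, so input and ratio are not independent. Summed input ranged from 0.15 to 61.5 RPM in the cytosolic genes, with a median of 8.97, and from 0.04 to 17.0 RPM in the mitochondrial genes, with a median of 1.26. These sums cover a longer genomic span in the cytosolic genes, with peak widths adding to a median of 5849 nt per gene against 300 nt. Per 1000 nt of this width the median input was 1.89 RPM against 1.00 RPM, with ranges of 0.137 to 6.50 and 0.111 to 6.40. The widths are genomic, may include introns and count nested SARS2 peaks more than once. Input per 1000 nt is therefore not a level corrected for RNA length. The values are levels over all cells of a library, in which fewer cells with the RNA and less RNA per cell cannot be told apart. Among genes below 1 RPM in input, 87.0% of the whole list were at 2-fold or more, against 61.1% at 1 to 10 RPM and 32.7% at 10 RPM and above.

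Within these ranges of input the classes lay closer together in some places and not in others. Below 1 RPM the 4 mitochondrial genes (FARS2, HARS2, TARS2 and WARS2) had a median log2 ratio of 1.99 and the 3 cytosolic genes (EPRS1, IARS1 and WARS1) 0.94, where the whole list had 1.68. Inputs were not alike inside this range, at 0.04, 0.17, 0.56 and 0.05 RPM against 0.15, 0.77 and 0.45 RPM, in the order named. At 1 to 10 RPM the medians were 1.22 for 4 mitochondrial genes and 1.05 for 7 cytosolic genes, where the whole list had 1.14, and 3 of the 4 and 5 of the 7 were at 2-fold or more. At 10 RPM and above, 0 of 5 cytosolic genes (FARSA, KARS1, QARS1, SARS1 and YARS1) reached 2-fold, with a median of 0.45 where the whole list had 0.78. SARS2, the only mitochondrial gene in that range, had 1.05. Its place there rests on a 21329-nt peak with 9.39 RPM of input. That peak lists 4 identifiers, reaches beyond the gene and contains the next SARS2 peak. The remaining SARS2 peaks had 6.49 and 1.15 RPM of input. The part of the input level in the difference between the classes was not tested.

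**Figure D2:**
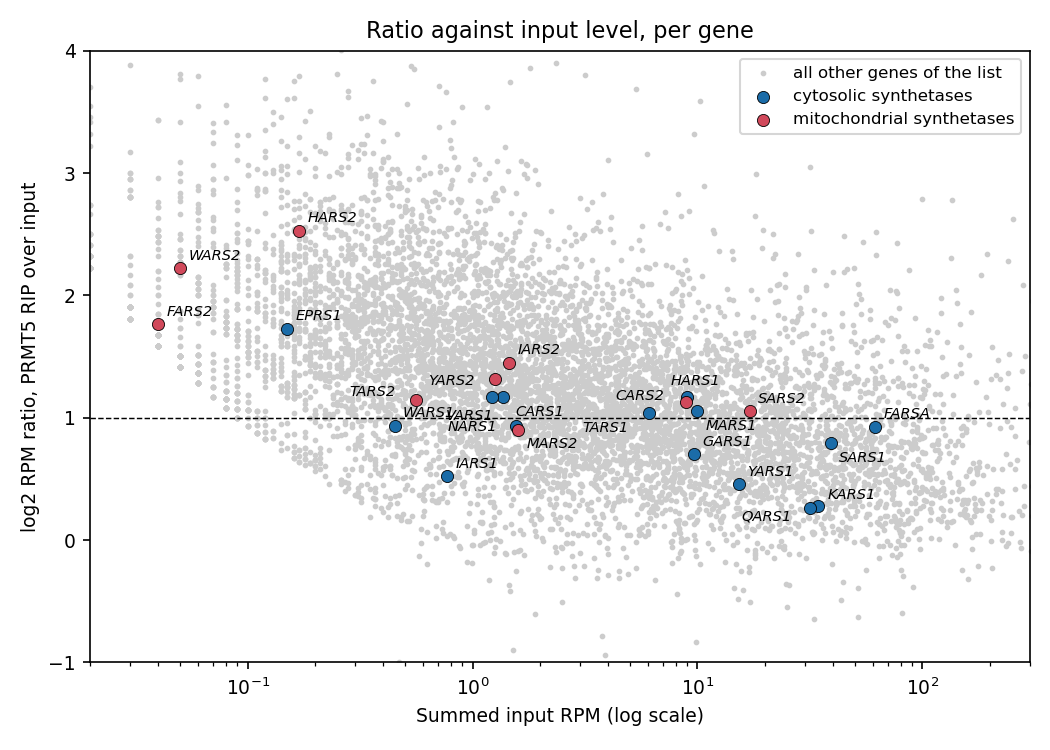
Log2 RPM ratio of PRMT5 RIP over input against summed input RPM (log axis) for every gene of the list (grey), cytosolic synthetases (blue) and mitochondrial synthetases (red), with the dashed line at 2-fold. The 5 cytosolic genes at 10 RPM and above all lie under the line, and 241 other genes fall outside the axes.

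For 9 amino acids both the cytosolic and the mitochondrial gene had a peak, a comparison chosen after the values were seen. The mitochondrial gene had the higher log2 ratio in 7 of the 9 pairs. The largest differences were between HARS2 and HARS1 (1.36 on the log2 scale), WARS2 and WARS1 (1.29) and IARS2 and IARS1 (0.93). The tyrosine pair (0.86) and the phenylalanine pair (0.84, FARS2 against FARSA) followed. HARS2, WARS2 and FARS2 had inputs of only 0.17, 0.05 and 0.04 RPM, in values rounded to 0.01. The serine and threonine pairs differed by 0.27 and 0.11. In the cysteine and methionine pairs the mitochondrial gene was lower, with differences of -0.04 and -0.15. The mitochondrial gene also had the lower summed input in 7 pairs, 6 of which were among the 7 with the higher ratio, and IARS2 was the exception, with 1.45 RPM of input against 0.77 for IARS1.

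Among the cytosolic genes with at least 0.5 RPM in input, HARS1, CARS1 and VARS1 had the highest ratios. Each was at 1.17 on the log2 scale, below the whole-list median of 1.20. HARS1, the cytosolic histidine enzyme (chr5:140673905-140691370, minus strand), had 20.2 RPM in RIP and 8.97 RPM in input, a fold of 2.25. Its 5 peaks, from the 5′ end, had 8.32 RPM in RIP against 4.24 in input, 0.49 against 0.41, 0.99 against 0.84, 5.56 against 2.17 and 4.82 against 1.31. The log2 ratio was thus 0.97 at the 5′ end, 0.25 and 0.23 in the middle, and 1.35 and 1.87 at the 3′ end.

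CARS1, the cysteine enzyme (chr11:3000929-3057423, minus strand), had 3.07 RPM in RIP and 1.36 in input, a fold of 2.26. Its 3 peaks had 0.61 RPM against 0.21, 1.68 against 0.63 and 0.78 against 0.52 from the 5′ to the 3′ end, so that the last was the lowest, at 1.50-fold. The middle peak touched a 75-nt peak of the antisense gene CARS1-AS1 on the plus strand, with 0.80 RPM against 0.38.

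VARS1, the valine enzyme (chr6:31777518-31795752, minus strand), had 2.75 RPM in RIP and 1.22 in input, a fold of 2.25. Its first peak, beginning 86 nt from the start, had 1.37 RPM against 0.83, and the second, 125 nt wide, had 0.76 against 0.16. The remaining pair of peaks had 0.38 RPM against 0.11 and 0.24 against 0.12. The highest ratio, 2.18 on the log2 scale, therefore stood at a peak with little input.

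QARS1, KARS1 and YARS1 had the lowest ratios of the cytosolic genes. QARS1, the glutamine enzyme (chr3:49095932-49104757, minus strand), had 37.8 RPM in RIP and 31.6 in input, a fold of 1.20, and 6.58% of the genes in the list were lower. From the 5′ end its 5 peaks had 7.69 RPM against 7.32, 10.9 against 10.8, 4.70 against 4.01, 4.09 against 2.77 and 10.5 against 6.70. The log2 ratio was lowest near the start (0.07 and 0.01) and highest at the 3′ end (0.64).

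KARS1, the lysine enzyme of both compartments (chr16:75627724-75647665, minus strand), had 41.6 RPM in RIP and 34.2 in input, a fold of 1.22. Its first peak, chr16:75644330-75647665, began at the RefSeq start and had 6.67 RPM against 1.75, a fold of 3.81. The next peak, chr16:75640307-75644304, had 20.8 RPM against 19.0. The 2 peaks near the 3′ end had 3.14 RPM against 3.28 and 10.95 against 10.2. The gene's low ratio thus covered 1 peak with 1.92 on the log2 scale and 3 peaks between -0.06 and 0.13. The peak with 3.14 RPM was the only synthetase peak below input, 1 of 64 against 3.84% of all peaks.

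YARS1, the tyrosine enzyme (chr1:32775239-32817358, minus strand), had 20.99 RPM in RIP and 15.3 in input, a fold of 1.37. All 7 of its peaks lay between 0.29 and 0.61 on the log2 scale, the narrowest range among the synthetase genes with 5 or more peaks. The first, 6380 nt wide, had 6.63 RPM against 4.33 and the last had 1.07 against 0.76.

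GARS1, the glycine enzyme of both compartments (chr7:30594735-30634033, plus strand), had 15.7 RPM in RIP and 9.62 in input, a fold of 1.63. Nearly all of this came from a 5076-nt peak at the 5′ end with 15.4 RPM against 9.42, and the second peak, 25 nt wide, had 0.30 against 0.20. A 300-nt peak of another identifier lay over the start of the gene on the minus strand, with 12.5 RPM against 7.16. GARS1 and KARS1 were counted with the cytosolic genes, and without them the cytosolic median was 0.94.

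EPRS1, which encodes the glutamate and the proline enzyme in 1 protein, had 1 peak of 75 nt (chr1:220046344-220046418) that began 87 nt from the start. It had 0.52 RPM in RIP and 0.15 in input, a fold of 3.47, which was the highest of the cytosolic genes, at an input below 0.5 RPM. EPRS1 belongs to the multi-synthetase complex, whose members on the list had peaks in 5 of 7 genes. The other 4 were IARS1 (1.11 RPM in RIP against 0.77 in input), KARS1, MARS1 (20.7 against 9.99) and QARS1. In the complex 2 of 5 genes reached 2-fold, with a median log2 ratio of 0.52. Outside it 4 of 10 cytosolic genes did, with a median of 0.93. The share over the whole list was 62.7%.

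The remaining cytosolic genes lay between these. FARSA, the alpha subunit of the phenylalanine enzyme, had the largest sums, 117 RPM in RIP against 61.5 in input, and SARS1, the serine enzyme, had 67.8 against 39.2. TARS1, the threonine enzyme, had 12.5 RPM against 6.08, and its 3 peaks had 7.37 against 3.01, 4.82 against 3.03 and 0.30 against 0.04. NARS1 and WARS1, the asparagine and tryptophan enzymes, had folds of 1.91 and 1.93, with 2.98 RPM against 1.56 and 0.87 against 0.45. By structural class of the catalytic domain, class I genes had a median log2 ratio of 1.09 and class II genes 1.04. EPRS1, which holds both, was left aside. A peak was found in 12 of 18 class I and 11 of 16 class II genes. Of these, 7 and 6 were at 2-fold or more (62.7% over the whole list).

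Among the mitochondrial genes with at least 0.5 RPM in input, IARS2, YARS2 and TARS2 had the highest ratios. They were at 1.45, 1.32 and 1.14 on the log2 scale, where the whole-list median was 1.20. IARS2, the isoleucine enzyme, had 1 peak of 300 nt near its start (chr1:220094157-220094456, plus strand) with 3.98 RPM in RIP and 1.45 in input, a fold of 2.74. YARS2, the tyrosine enzyme, had 1 peak (chr12:32755331-32755605, minus strand) with 3.16 RPM against 1.26, and a plus-strand peak of another identifier that overlapped it had 1.05 against 0.41. TARS2, the threonine enzyme, had 1.10 RPM against 0.52 and, in a 25-nt peak beside it, 0.15 against 0.04.

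CARS2, SARS2 and MARS2 had the lowest ratios of the mitochondrial genes. CARS2, the cysteine enzyme (chr13:110641410-110713522, minus strand), had 19.5 RPM in RIP and 8.91 in input, a fold of 2.19. From the 5′ end its 6 peaks had 5.10 RPM against 1.86, 2.06 against 0.46, 0.96 against 0.30, 0.28 against 0.18, 4.0 against 1.63 and 7.10 against 4.48. The 3 peaks nearest the 5′ end were at 1.45, 2.14 and 1.65 on the log2 scale, and the 3 nearest the 3′ end were at 0.61, 1.29 and 0.66.

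SARS2, the serine enzyme, had 35.4 RPM in RIP and 17.0 in input, a fold of 2.08. Its widest peak, chr19:38920086-38941414, had 19.4 RPM against 9.39, listed 4 identifiers and reached 10651 nt upstream of the start. That peak contains the next, with 13.8 RPM against 6.49, so the sums count some sequence more than once. It also lay over the plus-strand gene MRPS12, a mitochondrial ribosomal protein gene, whose main peak had 81.8 RPM against 35.4.

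MARS2, the methionine enzyme, had 1 peak of 250 nt (chr2:197705394-197705643, plus strand) with 3.0 RPM in RIP against 1.60 in input. It was the only mitochondrial gene under 2-fold, at 1.88. The authors' peak caller gave this peak a log2FC of 2.81, 1.91 above the log2 RPM ratio of 0.90, the largest gap of the synthetase peaks, and an FDR of 0.000285, the largest of the synthetase peaks with a value.

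HARS2, the mitochondrial histidine enzyme, lies head to head with HARS1 on the opposite strand (chr5:140691455-140699305). It had the highest ratio of all synthetase genes, with 1.03 RPM in RIP and 0.17 in input, and 94.9% of the genes in the list were lower. Its first peak, 25 nt wide and 2499 nt from the start, had 0.16 RPM against 0.05, and the second, 1507 nt wide, had 0.87 against 0.12, a fold of 7.25. The 5′ peak of HARS1 began 12 nt from its own start and was at 1.96-fold, so that the peaks nearest the shared start region belonged to HARS1. The other mitochondrial genes with low input were FARS2, the phenylalanine enzyme (0.16 RPM against 0.04), and WARS2, the tryptophan enzyme (0.27 against 0.05), each with 1 peak of at most 50 nt. Values were rounded to 0.01 RPM, so 1 rounding step is a large part of these inputs.

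Of the 64 synthetase peaks, 29 had at least 2-fold more RPM in RIP (background 56.6%), with 15 of 46 in cytosolic and 14 of 18 in mitochondrial genes. The authors' peak caller gave 63 of 64 an FDR of at most 0.01 (background 96.9%), the widest SARS2 peak having none. Of the 64 peaks, 6 were 25 nt wide (15.0% over the whole list), 12 were over 5000 nt wide (14.1%) and 19 had an input below 0.5 RPM (39.8%). A peak on the opposite strand overlapped 6 peaks (18.1% over the whole list), 1 in each of CARS1, FARSA, GARS1, MARS1, SARS2 and YARS2. The log2FC of the authors' peak caller was higher than the log2 RPM ratio at every synthetase peak with a value, by 0.65 to 1.91 with a median of 0.78, and over the whole list the median was 0.79.

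**Figure D3:**
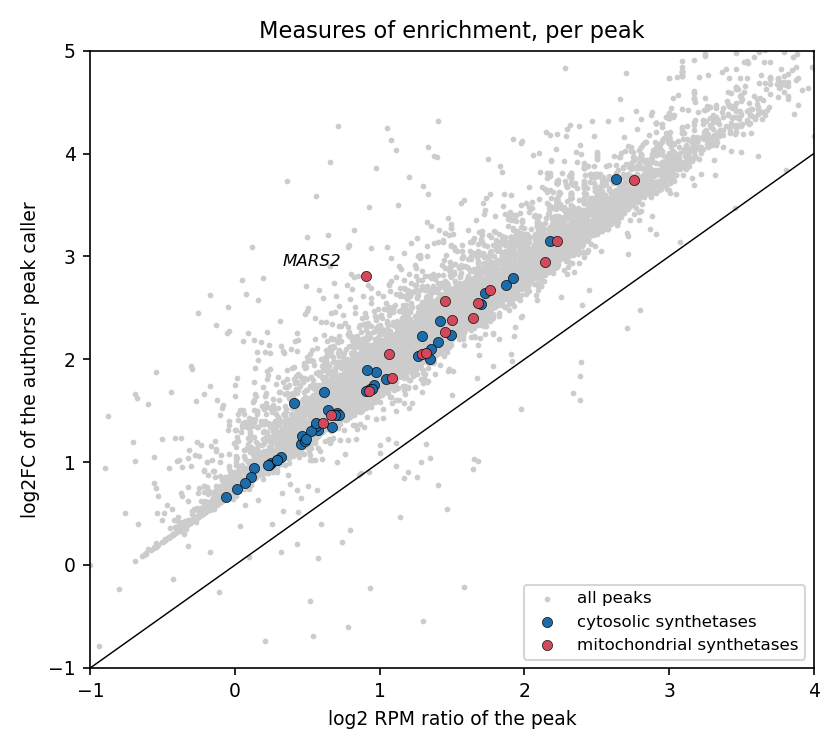
The log2FC of the authors' peak caller against the log2 RPM ratio of each peak, for all peaks (grey), cytosolic synthetases (blue) and mitochondrial synthetases (red), with a line where both are equal. All drawn synthetase peaks lie above the line, MARS2 is the farthest from it, and 94 other peaks fall outside the axes.

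Along the genes, the peak nearest the 5′ end had the higher log2 ratio in 8 of 16 synthetase genes with at least 2 peaks, against 69.5% of such genes in the whole list. This was 6 of 12 cytosolic and 2 of 4 mitochondrial genes. With peaks of at most 5000 nt it was 4 of the 13 genes left, against 67.3%. The 5′-most peak was higher by most in KARS1 (1.92 against 0.11 at the 3′-most peak), followed by FARSA (1.35 against 0.41), CARS1 (1.49 against 0.58) and CARS2 (1.45 against 0.66). The 3′-most peak was higher by most in TARS1 (2.63 against 1.29 at the 5′-most peak), HARS2 (2.76 against 1.50) and HARS1 (1.87 against 0.97). The last TARS1 peak was 50 nt wide with 0.30 RPM in RIP. A peak lay within 50 nt of a RefSeq start in 15 of the 24 genes, 11 of 15 cytosolic and 4 of 9 mitochondrial. The share over the whole list was not computed, so whether these counts are high or low for the list is not known. The exon, intron or UTR under each peak was not analysed here.

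**Figure D4:**
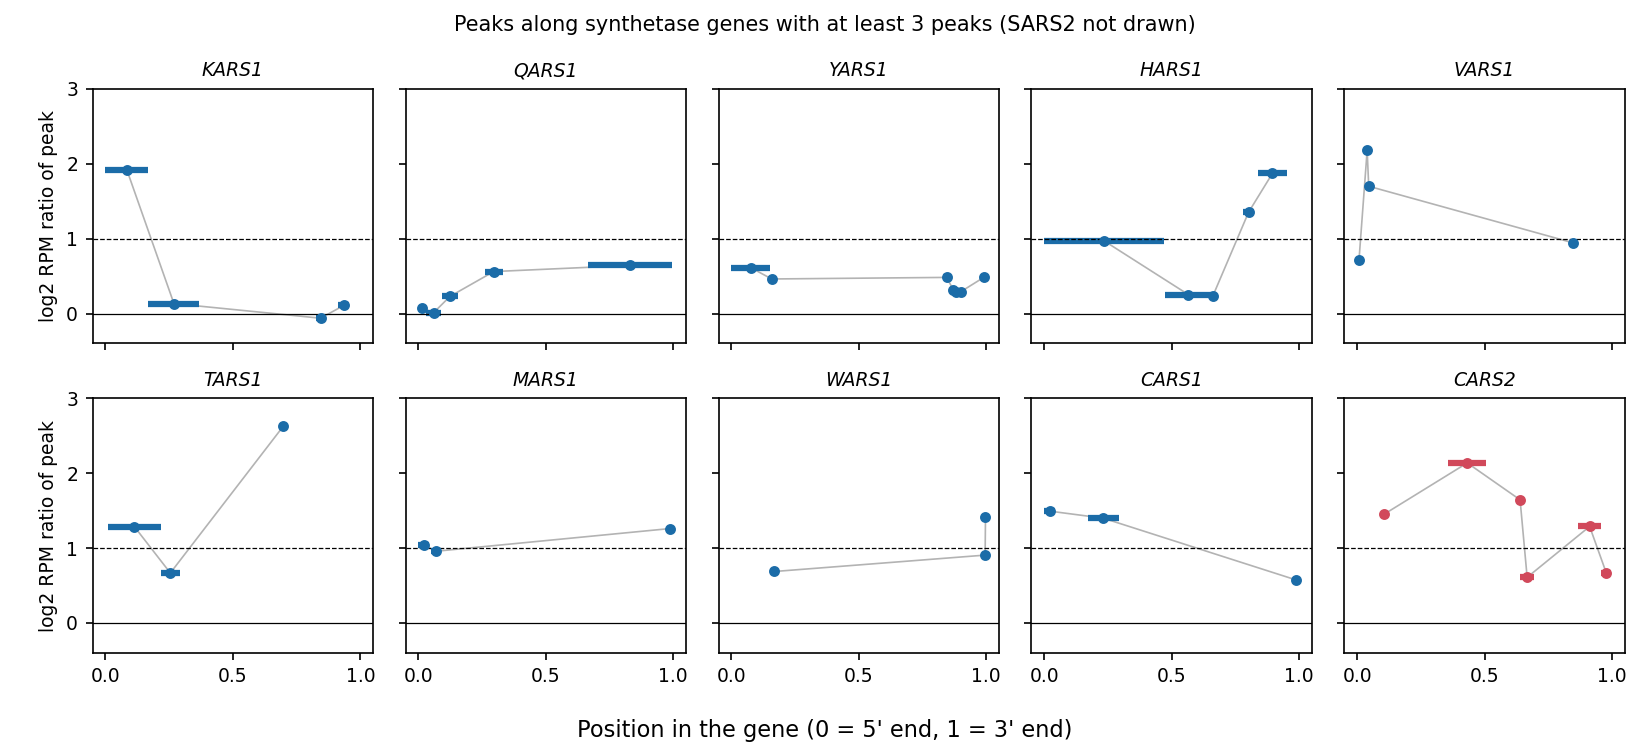
Log2 RPM ratio of each peak against its position in the gene (0 at the 5′ end, 1 at the 3′ end) for synthetase genes with at least 3 peaks, drawn as a bar over the width of the peak with a point at its middle, and with lines at equal RPM and at 2-fold (dashed). SARS2, whose widest peak reaches beyond the gene, is not drawn. The 5′-most peak is higher than the 3′-most in KARS1, CARS1, CARS2 and, by little, YARS1. It is lower in HARS1, TARS1, WARS1, QARS1, VARS1 and MARS1.

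Other genes of tRNA charging and of the amino acid response were counted in the same way. Among the scaffold proteins of the multi-synthetase complex, 2 of 3 genes had a named peak. AIMP1 had 0.75 RPM in RIP against 0.58 in input and AIMP2 had 17.9 against 12.3, so that neither reached 2-fold. In tRNA maturation and export 4 of 4 genes were at 2-fold or more (62.7% over the whole list), between 1.52 and 1.91 on the log2 scale and with inputs of 0.03 to 2.65 RPM, a range in which most genes of the list were at 2-fold: TRNT1, which adds the CCA end, ELAC1 and ELAC2, which trim the 3′ end, and XPOT, which exports tRNA from the nucleus.

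Partners in charging had a peak in 4 of 8 genes, of which 2 were at 2-fold or more (62.7% over the whole list). Of all protein-coding genes of known strand, 37.6% were touched by a peak on their strand, a looser count than a named peak. MTFMT, which formylates mitochondrial initiator methionyl-tRNA, and PSTK, which acts in selenocysteine synthesis, were at 1.35 and 1.40 on the log2 scale. GATB, of the mitochondrial glutamyl-tRNA amidotransferase, was at 0.88, and DTD1, which removes D-amino acids from tRNA, was at 0.01 with 55.9 RPM in RIP against 55.4 in input. In the amino acid response 5 of 9 genes had a named peak and 2 of the 5 were at 2-fold or more, against the same 62.7%. ATF4 had 239 RPM in RIP against 161.5 in input, a log2 ratio of 0.56, and its targets DDIT3 and TRIB3 were at 1.02 and 1.19. PHGDH and PSAT1, enzymes of serine synthesis, were at 0.63 and 0.81.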

How the data were processed

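PRMT5 RIP and input libraries of Jurkat cells, 2 of each, were the samples, grouped by their titles. The submitters' processing notes name fastp, HISAT2 and the build hg38, and the peak caller and annotation are not given in the sources used here. The authors deposited 1 list with, at each peak, the pooled RPM of RIP and of input, rounded to 0.01. The authors' log2FC is on a log2 scale that is not the ratio of the deposited RPM values, and how it was scaled is not given in the sources used here. The authors' p-value and FDR columns come from the same caller. The list gives no counts, so depth per library is unknown and no interval or floor was computed. The library kit is strand-specific, but the strand setting in counting is not given in the sources used here, so overlapping genes on opposite strands are uncertain.

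From the deposited values, peaks were assigned to their first-listed identifier, and starts were raised by 1. The study's supplemental list of peaks was used only for symbols. Otherwise an identifier took the RefSeq GRCh38.p14 gene on its strand that all its peaks touched, where this was the only one. Of 8478 identifiers 7213 were named, and of 806 named in both ways 800 had the same name. The motif was searched in the RefSeq windows on both strands. All synthetase genes with a peak could be named. Peaks were described for the 3 highest and 3 lowest genes of each class with at least 0.5 RPM in input, and for GARS1, KARS1, HARS1, HARS2 and EPRS1. Other genes shown with peak values (FARS2, WARS2 and TARS1) were picked with their values in view. Some genes of the other lists are not reported here. The members, lists and motif were chosen with earlier results of these data known. Alternatives covered FDR, input level, width, opposite-strand overlap, identifier, pseudocount, gene measure and the caller's log2FC. The summed gene ratio and the opposite-strand overlap were tested on simulated data. The 2-fold call was tested only for recovery of raised genes, by the log2 ratio, and the other steps were not tested. Python 3.11.15, pandas 2.3.3, numpy 2.4.6 and matplotlib 3.10.9 were used.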

Additional observations from a re-analysis of the deposited data

How the results depend on the processing

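With 1 pooled value per group, no replicate could be left out. No paired analysis was possible because the deposited list holds no value per library. The number of genes with a peak was 24 and stayed between 19 and 24. By the log2FC of the peak caller 13 of 15 cytosolic genes reached 2-fold in place of 6, and 9 of 9 mitochondrial genes in place of 8. With peaks of at least 0.5 RPM in input, fewer genes were left, and 5 of 6 mitochondrial and 4 of 13 cytosolic genes reached 2-fold. Genes with the higher 5′ peak were 4 of 13 in place of 8 of 16 with peaks of at most 5000 nt. Mitochondrial genes were higher in 7 of 9 pairs, and in 4 of the 6 pairs left with peaks of at least 0.5 RPM in input, an alternative chosen for the pairs after seeing the data. The cytosolic and mitochondrial medians (log2) were 0.79 and 1.06 with peaks of at least 0.5 RPM in input, 0.92 and 1.30 without opposite-strand overlaps, 0.89 and 1.12 with a pseudocount of 0.1, 0.91 and 1.37 as medians over peaks, and 1.71 and 2.30 by the caller. The cytosolic median was 0.74 with peaks of at most 5000 nt and 0.94 without GARS1 and KARS1, which was also chosen after seeing the data. The cause of these shifts was not tested. The mitochondrial median was the higher in each alternative run.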
